A study of Mus musculus with 16 samples.

Results

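The 9 genes Spry1, Spry2, Spry4, Spred1, Spred2, Dusp4, Dusp6, Etv4 and Etv5, which report and restrain ERK signalling, were followed in haematopoietic stem cells (HSCs). They were chosen by symbol, as 9 of the 46078 genes in the count table. Untreated WT and Gfra2-/- mice gave endosteal BM (the bone fraction) and central BM (the marrow fraction), and 30 HSCs (LSK CD48-CD150+) sorted from a fraction gave 1 Smart-seq2 library. The groups were 4 WT endosteal, 4 WT central, 4 Gfra2-/- endosteal and 3 Gfra2-/- central libraries. Gfra2 encodes the neurturin receptor, and the knockout lacks it in every cell of the mouse. The study describes the libraries as biological replicates, but the labels do not tie them to mice, so that p-values measure the spread between libraries, which may be technical.

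Receptor tyrosine kinases and cytokine receptors such as KIT and RET switch on RAS, which activates the kinases RAF, MEK and ERK in turn. Active ERK induces genes that dampen its own pathway. Sprouty proteins (Spry) act between the receptors and RAF, SPRED proteins bring neurofibromin to RAS at the membrane, and the dual-specificity phosphatases DUSP4 (in the nucleus) and DUSP6 (in the cytoplasm) remove the phosphates that activate ERK. The ETS factors ETV4 and ETV5 belong to the genes that growth factor receptors induce through ERK, and all of these transcripts are widely read as an output of the pathway.

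Among them, Dusp4 separated the genotypes. Its transcript was counted in all 7 libraries labelled Gfra2-/-, with 3 to 360 counts, while 7 of the 8 WT libraries had 0 counts and the remaining library had 1. Spred2 and Etv5 were lower in the libraries labelled Gfra2-/-, at log2 fold changes of -2.22 and -1.78 over both compartments, but neither passed the FDR of 0.1 with edgeR on all counts (Spred2 passed after thinning to equal depth). Spry1, Spry2, Spred1 and Dusp6 overlapped between all groups, and Spry4 and Etv4 were at or near 0. Between endosteal and central HSCs, 6 of the 9 genes were tested in WT and 7 in the libraries labelled Gfra2-/-, and none passed.

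The stretches that encode the active sites of both phosphatases are shown because Dusp4 carried the difference and Dusp6 is its tested relative. They were read from the GENCODE M21 transcripts of GRCm38 on the plus strand, 5′ to 3′, 72 bases each. Capitals mark the 24 bases that encode the signature motif of the family, from the histidine before the catalytic cysteine to the arginine. The Dusp4 stretch lies in exon 4 of 4 at chr8:34818409-34818480, and the Dusp6 stretch in exon 3 of 3 at chr10:99266003-99266074.
Dusp4: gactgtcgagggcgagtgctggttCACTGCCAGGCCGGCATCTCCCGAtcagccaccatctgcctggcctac
Dusp6: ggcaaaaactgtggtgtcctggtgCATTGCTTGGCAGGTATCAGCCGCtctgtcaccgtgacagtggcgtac

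The stretches had 42 of 72 bases in common (58.3%), and the longest run of identical bases that the whole transcripts shared was 13 bases, against a read length of 50 bases. None of the 2691 stretches of 50 bases in the Dusp4 transcript occurred in a transcript of another gene, on either strand. The same held for Spry2, Spry4, Spred1, Dusp6 and Etv4. Etv5 shared 28.3% of its stretches with Gm4798, Spry1 shared 19.4% with Gm42922, which overlaps it on the opposite strand, and Spred2 shared 1.41% with the pseudogene Gm14612. The Etv5 and Spry1 counts, with the largest shared parts, are the less certain ones. Reads were counted without regard to strand, so that strand does not separate Spry1 from Gm42922 where they overlap. Gm42922 had 36 counts and Gm14612 7 counts summed over all libraries, and Gm4798 was not among the genes counted.

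Library depth bears on all values. The counts on genes were 4416648 to 14003634 in WT endosteal libraries, 826487 to 3367289 in WT central libraries, 8519094 to 18550008 in endosteal and 7649803 to 14716308 in central libraries labelled Gfra2-/-. The last library of each group, 4 in all, held under 0.5% of counts on spike-in RNAs and the other 11 held more. The HSC markers were present in all groups (10 of 10, summed level 2270 to 3880 CPM in single libraries), and 1 endosteal library labelled Gfra2-/- held B cell markers at 1810 CPM. B cell markers also reached 387 CPM in WT central, 323 CPM in central libraries labelled Gfra2-/- and 98.7 CPM in WT endosteal libraries. T cell markers reached 23.2 CPM in central libraries labelled Gfra2-/- and at most 0.93 CPM in the other groups. Erythroid markers reached 441 CPM in endosteal libraries labelled Gfra2-/- against at most 53.1 CPM in WT libraries, and the Schwann cell gene Sox10 was at 0 in every library. Neutrophil and monocyte markers, summed, had a median of 1310 CPM and reached 2810 CPM in WT central libraries, against a median of 446 CPM (up to 1570 CPM) in central and at most 562 CPM in endosteal libraries labelled Gfra2-/-, and at most 760 CPM in WT endosteal ones. Of these markers, Elane and Mpo were at 0 in every WT central library. The part of these other markers in the results was not tested. The targeted gene does not check the labels well. Gfra2 had 0 to 4 counts in every WT library and 0 to 2 counts in the central and 2 of the endosteal libraries labelled Gfra2-/-. It had 47 and 9 counts in the other 2 endosteal libraries (B and D). Scaled to depth, its highest level was in WT central library C (5.35 CPM from 4 counts), above B and D at 2.37 and 0.786 CPM. Which part of the gene the allele deletes was not given in the sources used here, and counts from outside it would not go against the label. Values without B and D are given beside the results. Of the co-receptor genes, Ret had at most 3 counts in any library, and Gfra1 had 138 counts in endosteal library D labelled Gfra2-/- and at most 2 elsewhere. In bulk pools, fewer cells that express a gene and less RNA per cell cannot be told apart.

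The phosphatase genes were compared first. Dusp4 (ENSMUSG00000031530, chr8:34807297-34819894) had 0, 0, 0 and 0 counts in the WT endosteal libraries A to D. The WT central libraries gave 0, 1, 0 and 0. Endosteal libraries A to D labelled Gfra2-/- gave 360, 63, 3 and 213 counts, and central libraries A to C gave 37, 246 and 95. The genotypes did not overlap in either compartment, although endosteal library C sat close to the WT libraries. Of the genes tested, 2.69% in endosteal and 7.99% in central HSCs likewise did not overlap and were higher. Dusp4 itself was below the filter of those pairwise comparisons.

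In CPM, the count scaled to library size after TMM over the 15 libraries, endosteal libraries labelled Gfra2-/- reached a Dusp4 level of 11.6 ± 11.7 (SD, n = 4) and central ones a level of 12.6 ± 10.4 (SD, n = 3). The WT level was 0 in endosteal libraries and 0.0775 ± 0.155 (SD, n = 4) in central libraries. Pooled over the endosteal libraries, Dusp4 took 639 of 53268749 counts in the libraries labelled Gfra2-/- and 0 of 40888156 in WT, which allows up to 0.0734 CPM and makes the level at least 163-fold higher (floor of 3 counts over the group). Without library A, which gave 360 of the 639 counts, it was at least 97.4-fold higher. In central HSCs 378 of 32445855 counts stood against 1 of 8442967, a ratio of 98.4 with a 95% interval of 17.5 to 3900. Without library B labelled Gfra2-/- the ratio was 49.8 (8.79 to 1980), without library A it was 162 (29 to 6430), and without WT library B, which held the single count, the level was at least 19.7-fold higher. These bounds cover counting error only, since reads amplified by PCR are not independent molecules. Of the WT endosteal libraries, 3 of 4 (10781889 to 14003634 counts) were deeper than endosteal library C labelled Gfra2-/- (8519094 counts), in which Dusp4 was counted.

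**Figure D1:**
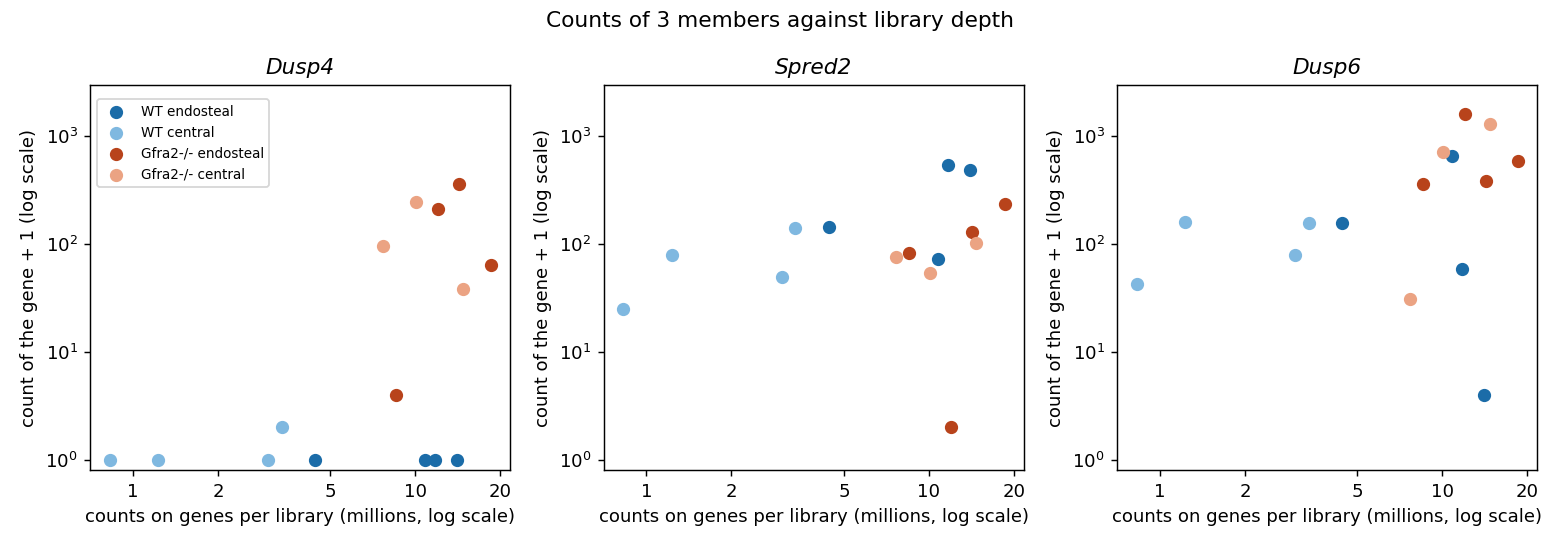
Counts of Dusp4, Spred2 and Dusp6 (plus 1, log axis) against the counts on genes of each library (log axis); each point is 1 library, coloured by group. Dusp4 sits at 0 or 1 count in WT libraries of every depth and at 3 to 360 counts in the libraries labelled Gfra2-/-, while Spred2 and Dusp6 were counted in all 15 libraries.

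On the log2(CPM + 1) scale, Dusp4 was 2.86 higher in endosteal and 3.27 higher in central libraries labelled Gfra2-/- than in WT (exact permutation test, two-sided, p = 0.029 in each, the smallest p that 4 against 4 and 4 against 3 libraries allow). Over both compartments, with labels exchanged only within a compartment, the difference was 3.06 (exact permutation p = 0.000408, the smallest the 2450 arrangements allow). Dusp4 did not pass the low-count filter of the pairwise genotype comparisons and was tested by edgeR in the fit over all 15 libraries, whose filter it passed only through the libraries labelled Gfra2-/-. There it rose with a log2 fold change of 8.24 (SE 1.43), an edgeR quasi-likelihood p of 1.65e-05 and a Benjamini-Hochberg adjusted p of 0.0224. Without any filter, where all genes with a count were tested, the log2 fold change was 8.27 (SE 1.62, edgeR adjusted p = 0.0173). The size of this fitted change rests on the prior count, because WT is at 0. This comparison over both compartments was added after the pairwise results were seen. It called 124 genes, 43 higher and 81 lower, which is 0.804% of the genes tested. With size factors from the spike-in RNAs it called 171 genes, 150 higher and 21 lower.

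The Dusp4 difference was present on each side of the split by spike-in share. On the log2(CPM + 1) scale it was 2.72 among the 11 libraries with more and 4.01 among the 4 libraries with less, and with the split as a term of the edgeR fit, added after the data were seen, the adjusted p was 0.0321. Without libraries B and D, the 2 remaining endosteal libraries labelled Gfra2-/- held 363 of 22733218 counts, at least 218-fold above WT. Of these, 360 came from library A and 3 from library C, which was at 0.346 CPM. The same omission left an edgeR adjusted p of 0.0959 over both compartments. With the 11 libraries alone it was 0.264 and the call was lost, at a log2 fold change of 7.83. Every labelled Gfra2-/- library exceeded every WT library for Dusp4, as for 22 of the genes tested (0.143%), and 28 genes (0.182%) were lower in every one.

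Few genes shared the present-or-absent pattern of Dusp4. At most 1 count in each WT library and at least 3 counts in each library labelled Gfra2-/- were found for 3 of the 46078 genes. These were Dusp4, Ccnb1ip1 and Gm17048, and the reverse was found for 0 genes. The limits equal the highest WT and the lowest Gfra2-/- count of Dusp4, so that its own place was fixed by the rule. They are raw counts, and the reverse is the harder to meet, since 1 WT central library held only 826487 counts. Ccnb1ip1, which encodes a ubiquitin ligase that interacts with cyclin B, had 0 counts in all WT libraries and 11 to 659 counts in the others. The pseudogene Gm17048 had at most 1 count in WT and 3 to 24 counts in the others. Both were singled out after their values were seen. They lie on chromosome 14 (chr14:50789248-50807732 and chr14:5958445-5959291), which also carries Gfra2 (chr14:70890120-70979838), and Dusp4 lies on chromosome 8. Neither gene is next to Gfra2, and whether position bears on the counts was not tested.

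Dusp6 (ENSMUSG00000019960, chr10:99263231-99267489), the cytoplasmic phosphatase, had the highest median of the feedback genes per length over the 15 libraries. Its levels were 37.9, 0.199, 60.0 and 4.73 CPM in WT endosteal and 143, 48.1, 56.2 and 26.6 CPM in WT central libraries. They were 25.8, 29.4, 41.7 and 141 CPM in endosteal and 85.5, 66.8 and 3.84 CPM in central libraries labelled Gfra2-/-. All groups overlapped, and single libraries of the WT endosteal group lay as far apart as 0.199 and 60.0 CPM. The log2 fold change between genotypes was 1.22 (SE 1.21) in endosteal HSCs, -0.42 (SE 0.93) in central HSCs and 0.49 (SE 0.85) over both, with an edgeR adjusted p of 0.877 in the last. Between compartments, the WT difference of endosteal from central HSCs was -2.35 on the log2(CPM + 1) scale (exact permutation p = 0.2).

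**Figure D2:**
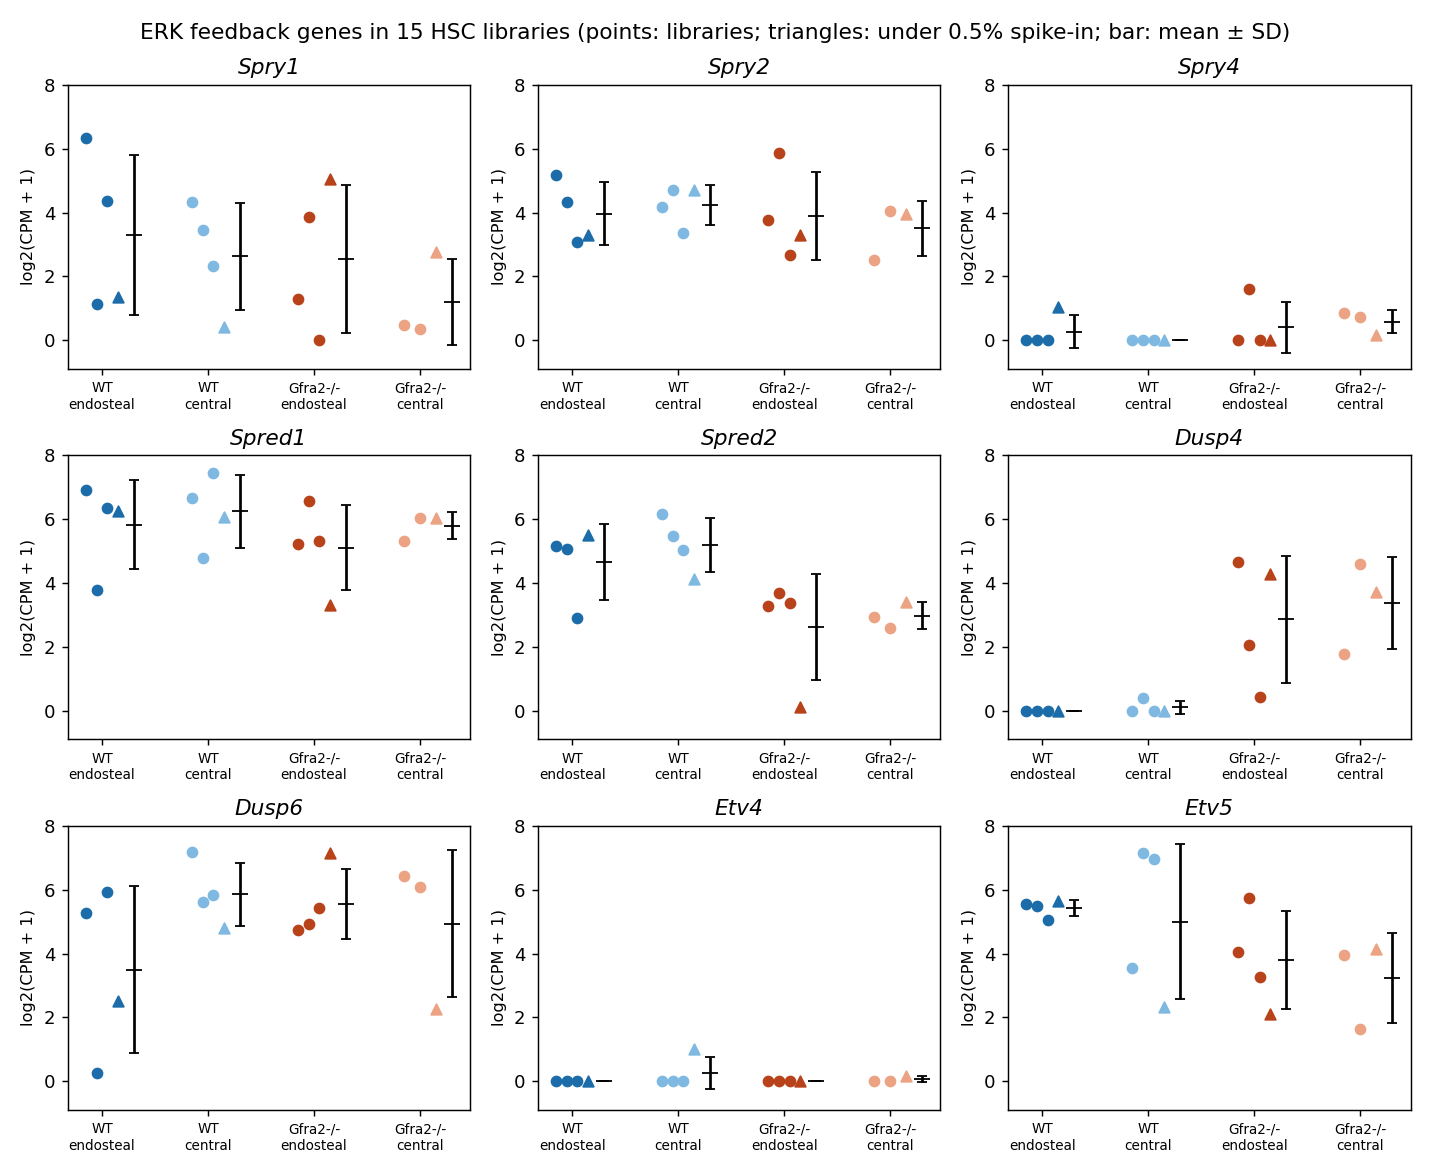
Level of each of the 9 feedback genes in log2(CPM + 1) (vertical axis) in the 4 groups; points are libraries, triangles the libraries with under 0.5% spike-in RNA, and the black bar the mean ± SD of the group. Dusp4 is at 0 in 7 WT libraries and above every WT library in all 7 labelled Gfra2-/-, Spred2 is lower on average in those, and most other genes spread widely inside each group.

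The SPRED genes, whose products hold RAS in check through neurofibromin, came next. Spred2 (ENSMUSG00000045671, chr11:19924375-20024026) was at 35, 32.3, 6.52 and 44.3 CPM in WT endosteal and 70.4, 43.1, 32.1 and 16.5 CPM in WT central libraries. In the libraries labelled Gfra2-/- it was at 8.77, 11.8, 9.35 and 0.0874 CPM in endosteal and 6.67, 5.0 and 9.61 CPM in central HSCs. All WT libraries but endosteal C were above all 7 of these, and in central HSCs the groups did not overlap. The log2 fold change was -2.53 (SE 0.97, adjusted p = 0.482) in central HSCs, -1.98 (SE 1.15, adjusted p = 0.788) in endosteal HSCs and -2.22 (SE 0.74, adjusted p = 0.206) over both, all by edgeR.

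With all counts, Spred2 thus missed the threshold in the 3 edgeR fits of genotype. Its difference from WT over both compartments was -2.13 on the log2(CPM + 1) scale (exact permutation p = 0.00327), with p = 0.0571 in central and p = 0.114 in endosteal HSCs by the same exact test. Split by spike-in share, it was -1.86 for the 11 libraries with more and -3.05 for the other 4. DESeq2 gave Spred2 an adjusted p of 0.017 over both compartments and 0.0489 in central HSCs, and with all libraries thinned to the smallest the edgeR adjusted p was 0.0945. With size factors from the spike-in RNAs, which moved the median of all genes by 1.75 (log2) in central HSCs, the Spred2 log2 fold change there was 0.20. Against that median it stayed lower. In the background, 8.73% of the genes tested in central HSCs and 11.9% over both compartments had an unadjusted p under 0.05. Spred2 was below that value in both, and Etv5 over both compartments. In central HSCs 4.44% of the tested genes did not overlap and were lower, and 7.99% were higher.

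Spred1 (ENSMUSG00000027351, chr2:117121374-117182279) was counted in every library. It was at 119, 12.8, 81.4 and 76.0 CPM in WT endosteal and 101, 26.4, 175 and 65.9 CPM in WT central libraries. It was at 36.2, 94.4, 38.9 and 9.0 CPM in endosteal and 39.0, 65.1 and 64.3 CPM in central libraries labelled Gfra2-/-. The groups overlapped, and the log2 fold change over both compartments was -0.70 (SE 0.51, edgeR adjusted p = 0.646). The related Spred3, not one of the 9 genes, had 11 to 77.3 CPM in WT endosteal and 0 to 5.04 CPM in WT central libraries, which did not overlap, as for 4.27% of the genes tested there. Its edgeR log2 fold change of 3.90 (SE 1.29) had an adjusted p of 0.483.

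The ETS factor Etv5 (ENSMUSG00000013089, chr16:22381309-22439719) was even in WT endosteal HSCs, with 45.7, 44.1, 32.0 and 48.6 CPM (CV 17.1%). In WT central HSCs it was at 10.8, 140, 123 and 4.03 CPM, so that A and D were far below B and C. Endosteal libraries labelled Gfra2-/- had 15.7, 52.8, 8.66 and 3.32 CPM and central ones 14.4, 2.07 and 16.7 CPM. In endosteal HSCs 3 of 4 of the former lay below every WT library, while library B, one of the pair with the highest Gfra2 counts, lay above them. The log2 fold change was -2.66 (SE 1.26, adjusted p = 0.585) in central, -1.08 (SE 0.80, adjusted p = 0.839) in endosteal HSCs and -1.78 (SE 0.79, adjusted p = 0.375) over both, all by edgeR. By exact permutation within compartments, p was 0.0702. With spike-in size factors the value in central HSCs was 0.95, again below the median of all genes.

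Etv4 (ENSMUSG00000017724, chr11:101769742-101785371) was almost absent. It had 3 counts in WT central library D, 1 count in central library C labelled Gfra2-/- and 0 in the other 13 libraries. A level of up to 0.0734 CPM in WT endosteal and 0.0563 CPM in endosteal HSCs labelled Gfra2-/- would be allowed by a count of 0. The relative Etv1 had 30 and 96 counts in 2 libraries labelled Gfra2-/- and 0 in all others.

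The Sprouty genes showed no difference that passed a test across all genes. Spry1 (ENSMUSG00000037211, chr3:37639947-37644598) was at 79.5, 1.2, 19.7 and 1.55 CPM in WT endosteal and 19.0, 9.92, 4.01 and 0.336 CPM in WT central libraries. It was at 1.42, 13.6, 0 and 32.0 CPM in endosteal and 0.392, 0.283 and 5.76 CPM in central libraries labelled Gfra2-/-. High and low libraries were found in both WT groups and in endosteal libraries labelled Gfra2-/-, while the central ones reached at most 5.76 CPM. The log2 fold change over both compartments was -1.49 (SE 1.23, edgeR adjusted p = 0.698). On the log2(CPM + 1) scale the genotype difference was -2.59 among the 11 libraries with more spike-in RNA and 3.02 among the 4 others, so that it did not hold on both sides of this split.

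Spry2 (ENSMUSG00000022114, chr14:105891947-105896819) was counted in every library. It was at 35.2, 19.0, 7.34 and 8.73 CPM in WT endosteal and 17.2, 25.1, 9.36 and 24.9 CPM in WT central libraries. It was at 12.5, 57.4, 5.42 and 8.91 CPM in endosteal and 4.71, 15.7 and 14.5 CPM in central libraries labelled Gfra2-/-. The groups overlapped, and the log2 fold change over both compartments was -0.18 (SE 0.67, edgeR adjusted p = 0.951), an error that leaves room for changes of that size or larger either way.

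Spry4 (ENSMUSG00000024427, chromosome 18) was counted in 5 of 15 libraries. WT endosteal library D had 13 counts, endosteal library B labelled Gfra2-/- had 40, and the central libraries labelled Gfra2-/- had 12, 7 and 1, against 0 in all WT central libraries. The last 2 groups did not overlap, as for 7.99% of the genes tested in central HSCs, among which Spry4 was not, being below the filter (0.58 on the log2(CPM + 1) scale, exact permutation p = 0.029, the smallest possible). The WT central libraries hold 8442967 counts in all, so that a count of 0 allows up to 0.355 CPM, and the levels of the other group were 0.128 to 0.785 CPM. A difference was therefore barely resolved at this depth.

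**Figure D3:**
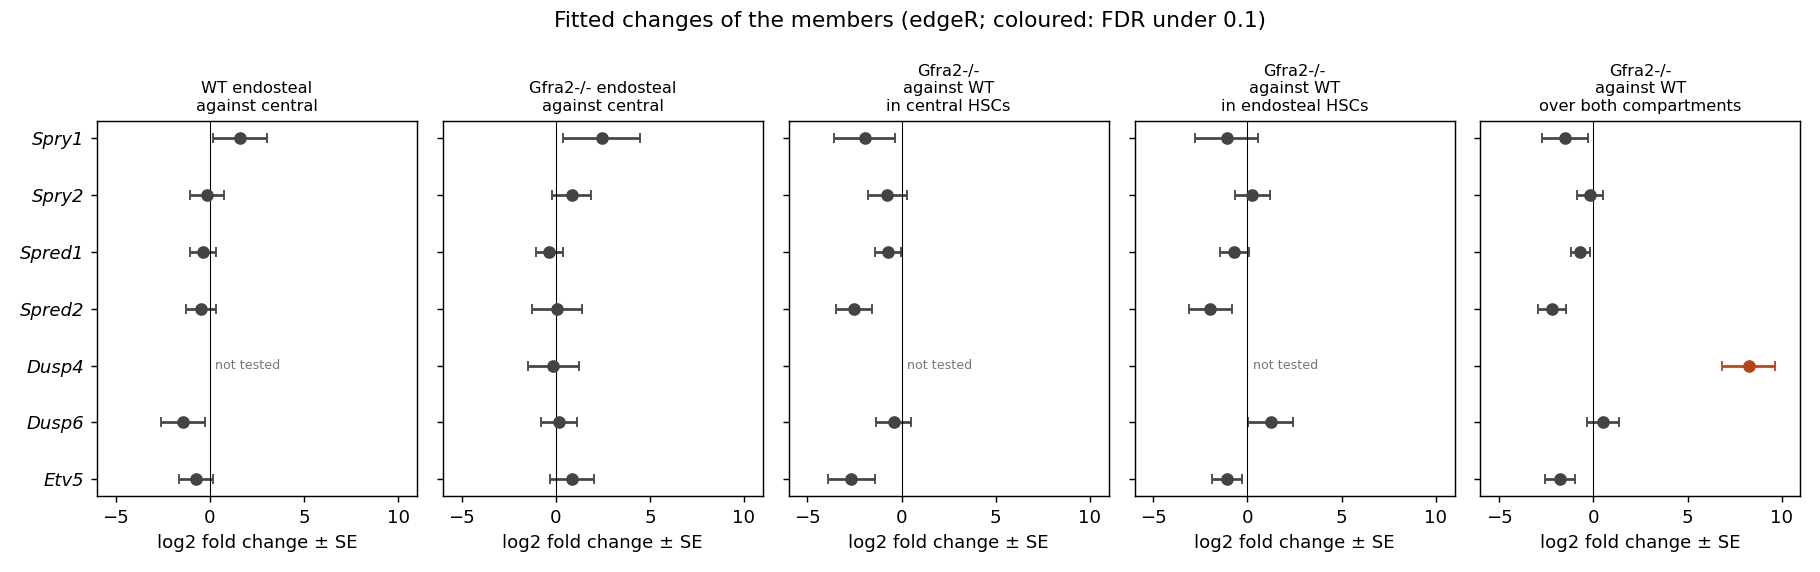
Fitted log2 fold change ± SE (horizontal axis) of the 7 feedback genes that passed the low-count filter in at least 1 fit, in 5 comparisons by edgeR; "not tested" marks genes below the filter and colour an adjusted p under 0.1. Dusp4 over both compartments is the coloured point, at 8.24 ± 1.43, and Spred2 and Etv5 lie left of 0 in the 3 genotype panels.

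Endosteal and central HSCs were compared within each genotype. Of the 9 genes, 6 passed the filter in WT, and their log2 fold changes of endosteal against central ranged from -1.42 for Dusp6 (SE 1.15) to 1.61 for Spry1 (SE 1.43), with edgeR adjusted p values of 0.794 and 0.814. In the libraries labelled Gfra2-/- 7 were tested, from -0.33 for Spred1 (SE 0.70) to 2.46 for Spry1 (SE 2.05), both at an adjusted p of 0.999. Dusp4, tested there, had a log2 fold change of -0.12 (SE 1.36, adjusted p = 0.999), an error that leaves room for a change either way. The edgeR fits called 0 of 11181 genes in WT (882 at an unadjusted p under 0.05) and 0 of 13860 in Gfra2-/- (664), which is 0.0% in each. DESeq2 called 216 and 156 genes, with none of the 9 among them.

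The pairwise genotype fits called none of the feedback genes tested either. In central HSCs 6 of 11772 genes passed (0.051%) and 0 of 6 feedback genes. In endosteal HSCs 0 of 12970 genes passed with edgeR (0.0%, 868 at an unadjusted p under 0.05 and 132 genes with DESeq2). All 6 tested feedback genes had a negative log2 fold change in central HSCs, with a median of -1.35 against 0.03 over all genes, and 4 of 6 in endosteal HSCs, with a median of -0.89. Both medians leave out Dusp4, which was below the filter there, and under spike-in size factors all 6 were above 0 in central HSCs, with a median of 1.17 against 1.75 over all genes. The shared direction also did not hold under the quality limits, which WT central libraries A and C did not meet. There 7 feedback genes were tested in central HSCs, 3 higher and 4 lower, with a median of -1.14 against 0.10 over all genes. In endosteal HSCs 2.69% of the tested genes did not overlap between genotypes and were higher. The interaction of genotype and compartment was past the threshold for 0 of 15416 genes with edgeR (0.0%, 1074 at an unadjusted p under 0.05 and 176 with DESeq2). For Dusp4 it was 3.07 (SE 1.84, edgeR adjusted p = 0.777). That value rests on the single WT count of Dusp4 and the prior count. Without WT central library B, which held the count, it was -0.12 (SE 214).

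Per kilobase of exon, the median level over the 15 libraries was 13.3 CPM/kb for Dusp6, 9.59 for Spred1, 6.93 for Spry2, 4.06 for Etv5, 2.55 for Spred2, 1.38 for Spry1 and 0.113 for Dusp4, and 0 for Spry4 and Etv4. Ranges overlapped between each pair of neighbours in this order. It differed between groups: in WT endosteal HSCs the mean was 10.7 CPM/kb for Spred1, 10.4 CPM/kb for Etv5 and 8.21 CPM/kb for Dusp6. In the libraries labelled Gfra2-/- alone, endosteal HSCs had Dusp4 at 4.24 ± 4.26 CPM/kb (SD, n = 4) and central HSCs at 4.6 ± 3.79 CPM/kb (SD, n = 3), levels similar to that of Etv5 in endosteal HSCs (4.90 ± 5.45, SD, n = 4). Smart-seq2 primes on the poly(A) tail, so that levels per length are approximate.

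Whether the 7 tested feedback genes varied together was read after the group means were removed, and no pair passed the test. Over their 21 pairs and 15 libraries, Pearson's r of the log2(CPM + 1) residuals ranged from -0.42 (Spred2 and Dusp6, Spearman's rho -0.32) to 0.47 (Spred2 and Etv5, rho 0.33), with a smallest adjusted permutation p of 0.609 for r and 0.664 for rho. Without the 2 most distant libraries the Spred2 and Etv5 value was 0.40 and the Spred2 and Dusp6 value -0.05.

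Among 11944 protein-coding genes, those whose level followed each feedback gene most closely over the 15 libraries are given as a description, since all points share libraries and depth. Spry1 was followed by Cd34, a surface marker of progenitors and some HSCs (Spearman's rho 0.92), and Rnf187 (0.83). Spred1 was followed by Tgfbr3, a co-receptor of TGF-beta (0.93), and Akirin2 (0.89). Spred2 was followed by Mex3a (0.91) and the SoxC factor Sox12 (0.90), Dusp6 by Mtor, the growth kinase (0.86), and Ube2l6 (0.80), and Etv5 by Synj2bp (0.84) and Uck2 (0.81). Dusp4 was followed by 6030445D17Rik (0.87) and Plrg1 (0.87), and Spry2 by Selenoh (0.79) and Eid1 (0.79).

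The rest of the pathway was read from 3 lists. Of 23 other ERK feedback and output genes 15 were tested over both compartments, and 1 passed the threshold, lower in the libraries labelled Gfra2-/-. This was Dusp10, a phosphatase that acts mainly on p38 and JNK. It had 16, 119, 92 and 106 counts in WT endosteal and 0, 0, 5 and 12 counts in WT central libraries, against 0 to 2 counts in all 7 libraries labelled Gfra2-/-. The log2 fold change was -5.98 (SE 1.47, edgeR adjusted p = 0.0981), a fitted size that depends on the prior count. The groups did not overlap in endosteal HSCs, where 3.55% of the tested genes did not overlap and were lower, and overlapped in central HSCs. Leaving out single libraries gave an adjusted p of 0.097 to 0.198, and without libraries B and D it was 0.263, so that the call sat at the threshold. Dusp5 and Dusp7, close relatives of Dusp4 and Dusp6, were at 0.486 to 37.2 CPM and 0 to 22.0 CPM over all libraries, with every group overlapping.

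Of the 27 genes of the RAS-ERK core all were tested over both compartments, and 1 passed. Mapk3, which encodes ERK1, the substrate of these phosphatases, fell by 1.65 on the log2 scale (SE 0.33, edgeR adjusted p = 0.0426). It was at 110, 101, 56.1 and 148 CPM in WT endosteal and 120, 140, 267 and 196 CPM in WT central libraries. In the libraries labelled Gfra2-/- it was at 24.9, 32.3, 53.5 and 43.5 CPM in endosteal and 22.4, 58.6 and 63.3 CPM in central HSCs. The groups did not overlap within either compartment, against 3.55% (endosteal) and 4.44% (central) of the genes tested. The adjusted p rose past 0.1 without WT endosteal library D (0.105) and without central library A (0.14) or B (0.126) labelled Gfra2-/-. Without both endosteal libraries B and D labelled Gfra2-/- it was 0.161. The list as a whole had 10 genes higher and 17 lower, with a median of -0.10 against 0.11 over all genes. Rasgrp1, a RAS activator, had 0 CPM in all WT libraries and 0 to 56.0 CPM in the others (adjusted p = 0.123), and the adaptor gene Grb2 had a log2 fold change of -1.46 (SE 0.39, adjusted p = 0.318) in central HSCs.

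**Figure D4:**
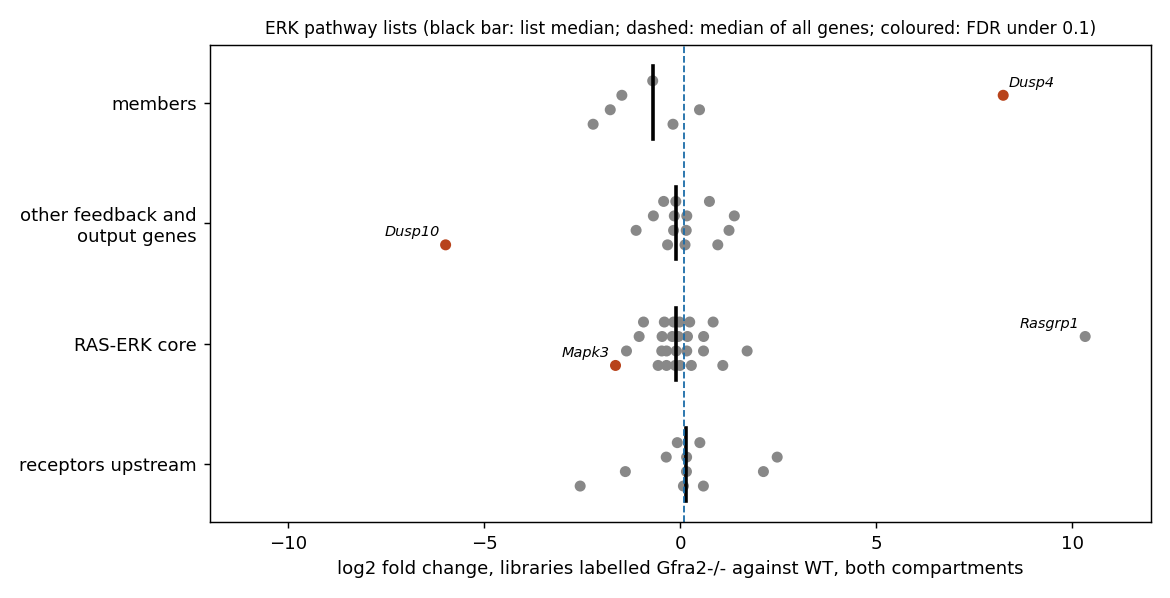
Log2 fold change of libraries labelled Gfra2-/- against WT over both compartments by edgeR (horizontal axis) for the tested genes of 4 lists; each point is a gene, the black bar the list median, the dashed line the median of all genes (0.11), and colour an adjusted p under 0.1. Dusp4, Dusp10 and Mapk3 are coloured, and the medians of the lists lie between -0.70 and 0.16.

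Of 18 receptor genes upstream of RAS, 11 were tested over both compartments and 0 passed with edgeR, with 3 at an unadjusted p under 0.05. Fgfr1, a fibroblast growth factor receptor, had a log2 fold change of -1.40 (SE 0.53, edgeR adjusted p = 0.268). Among outputs of ERK, the log2 fold change of Myc was 0.96 (SE 0.35, adjusted p = 0.249). In the pairwise and interaction fits the 3 lists had 0 genes past the threshold, with 0 to 4 genes of a list at an unadjusted p under 0.05.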

How the data were processed

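Reads of 50 bases were aligned by the authors to GRCm38 with GSNAP and counted with HTSeq (0.5.3p3) without regard to strand, and the deposited table holds raw counts, with 46078 genes, 92 rows for spike-in RNAs and 5 for reads without a gene. Rows that name no gene took no part in library sizes (54.62% to 80.25% of all entries). The labels describe 16 samples. Columns were matched to groups through the study's supplementary sample lists, 1 column was not mapped and was not used, and library letters are names only.

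Genes were named by GENCODE M21 (45143 matched). The main test was edgeR (4.0.16) quasi-likelihood with TMM and filterByExpr over all genes, Benjamini-Hochberg adjusted, at FDR 0.1. It was first tested on simulated data. DESeq2 (1.42.0), the tool of the study, was an alternative. Single values were compared by exact two-sided permutation of log2(CPM + 1). The 9 genes and all lists were chosen with earlier results of these data known. Named genes were the 9 members, the 2 with the smallest p of each list per comparison (those not given here were not past the threshold, and 1 is not reported here), the 2 genes most like each member, Gfra2, Ret, Gfra1 and close relatives. Alternatives were scaling, filter, thinning to equal depth, quality limits (at least 1500000 counts, at most 20% mitochondrial), spike-in share and leaving out libraries.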

Additional observations from a re-analysis of the deposited data

Results flagged for a closer look

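In 3 of the 21 sets of 4 libraries examined, 1 library stood apart from the others by Dixon's test, which by chance marks about 1 in 20 sets. In a set examined where 3 of 4 values are at 0, any library with a count stands apart, so that both Spry4 cases below are not to be read against that rate. Dusp4 and Etv4 in WT central libraries, with 1 and 3 counts in a single library, were not among the cases flagged. Spry4 was at 1.06 CPM in WT endosteal library D and at 0 in the other 3 of its group. Spry4 was at 2.01 CPM in endosteal library B labelled Gfra2-/- and at 0 in the other 3. Spred2 was at 0.0874 CPM in endosteal library D labelled Gfra2-/-, against 8.77 to 11.8 CPM in the rest of its group. Libraries B and D are those labelled Gfra2-/- that held 47 and 9 Gfra2 counts, and without D the Spred2 log2 fold change over both compartments was -2.03 (edgeR adjusted p = 0.202).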

How the results depend on the processing

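Of 923 alternative values of the log2 fold changes named, 809 kept direction and call, 74 changed sign, 13 gained and 27 lost the call. The Dusp4 call over both compartments was lost with the libraries of more spike-in RNA alone (7.83, adjusted p = 0.264) and held in the other edgeR settings that could be fitted (adjusted p 0.00454 to 0.0959) and with DESeq2. Leaving out single libraries gave 0.0214 to 0.0823. Mapk3 lost its call with spike-in size factors (-1.10, adjusted p = 0.903), the quality limits (-1.56, 0.126) and the libraries of more spike-in RNA (-1.62, 0.329). Dusp10 lost it with spike-in size factors (-6.39, 0.166), without a filter (-5.96, 0.156), with the quality limits (-5.97, 0.18), with the libraries of more spike-in RNA (-5.41, 0.361) and with the split by spike-in share as a term (-6.05, 0.123). DESeq2 called Rasgrp1 (0.000731) and Fgfr1 (0.0593) over both compartments, Grb2 (0.0175) in central HSCs and Spred3 (0.059) between WT compartments. No paired analysis was possible because library columns bear no replicate number from the labels. The WT central libraries, with the lowest depth, limit what central comparisons can resolve.

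The number of genes past the threshold depended on the test. With DESeq2 it was 216 for WT endosteal against central, 156 for Gfra2-/- endosteal against central, 371 for central and 132 for endosteal genotype comparisons, 176 for the interaction and 920 over both compartments, with 1 and 2 feedback genes in the central and the combined genotype comparison. At FDR 0.05 it was 0 in central HSCs and 37 over both. With all 4 groups in 1 fit it was 22 for WT compartments and 1 for endosteal genotypes. With at least 10 counts in every library it was 11 (WT compartments), 29 (central) and 231 (both), and 0 feedback genes, since Dusp4 was not tested. Without a filter it was 58, 134 and 66. After thinning it was 4 (WT compartments) and 16 (central), with 2 feedback genes over both. With the quality limits it was 0 (central) and 22 (both), and with the libraries of more spike-in RNA 1 (central) and 0 (both) with 0 feedback genes. With spike-in size factors it was 15 (Gfra2-/- compartments), 2 (central), 6 (endosteal) and 193 (interaction). Without libraries B and D it was 18 over both. Without single libraries it ranged from 0 to 6 for WT compartments, from 0 to 8 in central HSCs and from 15 to 159 over both.

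Spike-in size factors moved the median of all genes by 1.58 (WT compartments), -0.46 (Gfra2-/- compartments), 1.75 (central), -0.28 (endosteal), -2.18 (interaction) and 0.74 (both). Signs of log2 fold changes that turned with them were, for WT compartments, 0.30 (Spry2), 1.53 (Spred1), 2.18 (Spred2), 0.16 (Dusp6) and 2.49 (Etv5). For Gfra2-/- compartments they were -0.38 (Spry2), -1.59 (Spred2) and -0.88 (Etv5). In central HSCs they were 2.29 (Spry1), 0.72 (Spry2), 1.42 (Spred1), 0.20 (Spred2), 1.39 (Dusp6), 0.95 (Etv5) and 0.18 (Grb2). In endosteal HSCs Spry1 was at 1.21. The interaction was -1.08 (Spry1), -0.68 (Spry2), -3.23 (Spred1), -3.77 (Spred2) and -3.37 (Etv5), and over both Spry1 was at 1.71 and Spry2 at 0.35.

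Other settings turned signs too. Thinning gave -0.0657 (Spred1, interaction) and 0.11 (Spry2, both), and no filter gave -0.0039 (Spred1, interaction). The quality limits gave 0.64 (Spred1, WT compartments), 0.24 (Spred1) and 0.44 (Dusp6) in central HSCs and -0.97 (Spred1, interaction). The libraries with more spike-in RNA gave 0.17 (Spry2, WT compartments), 0.13 (Spred1) and -1.22 (Dusp6) for Gfra2-/- compartments, and for Dusp6 -0.011 in endosteal HSCs and -0.0271 over both. Without B and D, Gfra2-/- compartments gave -1.56 (Spry1), -0.38 (Spry2) and -0.62 (Dusp6), endosteal HSCs -0.96 (Spry2), and the interaction -3.20 (Spry1), -0.27 (Spry2) and -0.28 (Spred1).

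Leaving out single libraries gave, for WT compartments, -0.20 to 2.41 (Spry1), -0.77 to 0.11 (Spry2) and -0.75 to 0.16 (Spred1). For Gfra2-/- compartments it gave -0.38 to 1.17 (Spry2), -0.999 to 0.0014 (Spred1), -0.22 to 0.49 (Spred2), -0.77 to 0.68 (Dusp4), -0.69 to 0.74 (Dusp6) and -0.26 to 1.31 (Etv5). It gave -0.98 to 0.23 (Dusp6) in central HSCs, and -2.34 to 0.65 (Spry1) and -0.97 to 0.83 (Spry2) in endosteal HSCs. The interaction ranged from -0.39 to 3.45 (Spry1), -0.24 to 1.58 (Spry2), -0.65 to 0.36 (Spred1) and -0.12 to 3.82 (Dusp4), and over both from -0.85 to 0.0668 (Spry2) and -0.0229 to 0.86 (Dusp6). The cause of these changes was not tested.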
